A study of Mus musculus with 36 samples.

Results

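The nuclear subunits of respiratory complex I, 35 genes named by their symbols as structural subunits, were followed in the heart, kidney and liver of mice. No measured value entered the rule that names the members, although earlier results of these data were known, and all 35 matched 1 identifier each among the 78239 genes of the deposited count files. The mice were male, wild-type C57BL/6NCrl animals, an inbred substrain, with no treatment other than ketamine/xylazine anaesthesia before organ collection, and were 8, 10 or 12 weeks old when RNA was taken. There were 4 libraries for each of the 9 groups of tissue and age, 36 in all, and between 21031599 and 33637390 read pairs were counted on genes per library. Levels are given as CPM, the counts per 1000000 counted pairs, with library sizes scaled within and between tissues by TMM factors. A difference between ages was called at an adjusted p under 0.05, and a difference between tissues at an adjusted p under 0.05 with a log2 fold change beyond 1. All p-values came from edgeR's quasi-likelihood test, adjusted over all genes tested.

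Complex I is the entry point of the respiratory chain. It oxidises NADH, passes the electrons through a flavin and a row of iron-sulfur clusters to ubiquinone, and pumps protons across the inner mitochondrial membrane. Its matrix arm carries the electron transfer and its membrane arm the proton pumps, whose central subunits are encoded by mitochondrial DNA, while all other subunits are nuclear genes whose proteins are imported. Here the 35 members were grouped into 6 core subunits of the matrix arm, 9 accessory subunits of the matrix arm, 9 of the proximal and 11 of the distal membrane arm.

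The tissues carried the markers of their labels. The summed level of 6 cardiomyocyte markers lay between 43080 and 57390 CPM in heart samples and at no more than 3.97 CPM in the other tissues, and hepatocyte markers lay between 87910 and 153800 CPM in liver and at no more than 149.6 CPM elsewhere. Proximal tubule markers lay between 18430 and 24010 CPM in kidney and at no more than 6.55 CPM elsewhere. In such bulk samples, fewer cells of a type and less RNA per cell cannot be told apart.

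Promoter sequences are shown for 3 members on which the results below turn. Ndufs7 was the core subunit called lower in heart at 12 weeks, Ndufc1 had the steadiest difference between ages in kidney, and Ndufa11 had the highest ratio of heart to kidney in the unstranded counts. Each is the 300-base window of RefSeq around the transcription start, on GRCm38.p6, written 5′ to 3′ on the strand of the gene. The Ndufs7 window is chr10:80249199-80249498 on the plus strand, that of Ndufc1 is chr3:51408906-51409205 on the minus strand, and that of Ndufa11 is chr17:56717512-56717811 on the plus strand. Capitals mark AAGATGGCG, letters of the YY1 motif, in Ndufs7 and Ndufc1, and GCGCATGCG, letters of the NRF1 motif that match both strands here with an offset of 1 base, in Ndufa11.
Ndufs7: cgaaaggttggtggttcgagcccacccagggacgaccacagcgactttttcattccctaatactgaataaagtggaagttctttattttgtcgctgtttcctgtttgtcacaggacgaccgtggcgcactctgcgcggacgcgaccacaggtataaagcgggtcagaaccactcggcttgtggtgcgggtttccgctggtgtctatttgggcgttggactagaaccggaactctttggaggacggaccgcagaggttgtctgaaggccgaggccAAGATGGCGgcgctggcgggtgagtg
Ndufc1: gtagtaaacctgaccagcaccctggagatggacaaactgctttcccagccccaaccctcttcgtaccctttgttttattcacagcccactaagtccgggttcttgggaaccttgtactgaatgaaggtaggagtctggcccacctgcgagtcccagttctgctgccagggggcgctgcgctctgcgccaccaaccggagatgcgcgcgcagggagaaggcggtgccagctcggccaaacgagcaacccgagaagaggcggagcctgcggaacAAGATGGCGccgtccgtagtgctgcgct
Ndufa11: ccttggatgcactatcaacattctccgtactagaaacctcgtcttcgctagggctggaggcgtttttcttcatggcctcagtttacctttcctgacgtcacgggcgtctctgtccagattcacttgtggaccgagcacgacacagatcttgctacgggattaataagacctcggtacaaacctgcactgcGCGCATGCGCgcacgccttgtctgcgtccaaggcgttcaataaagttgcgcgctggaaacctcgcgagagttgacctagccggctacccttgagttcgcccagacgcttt

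Windows were given for 32 of the 35 members and for 27025 genes in all, and each motif was searched on both strands. AAGATGGCG was found in 5 members (15.6%), Ndufa9, Ndufc1, Ndufs4, Ndufs6 and Ndufs7, and in 1.64% of all genes. Its shorter form AAGATGG was found in 7 members (21.9%) and in 7.28% of all genes. The ETS letters CCGGAAG were found in 4 members (12.5%) and in 9.93% of all genes, and the longer CCGGAAGT in 1 member (3.13%) and 4.31%. GCGCATGCG was found in 2 members (6.25%), Ndufa11 and Ndufa8, against 1.95% of all genes, and the ERR letters TCAAGGTCA were in no member window and in 0.466% of all. The shorter and longer forms overlap by construction. These matches describe letters in a window and not bound sites.

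The subunits were most abundant in heart. Of the 35 members, 32 were called higher in heart than in kidney, where 21.9% of all genes tested were higher, and 0 were called lower, against 30.8%. Against liver, 31 members were called higher in heart, beside 28.7% of all genes, and 0 lower, beside 26.5%. The median log2 fold change of the members was 1.67 against kidney (3.19-fold) and 1.55 against liver (2.92-fold), and the medians over all 19716 genes tested were -0.15 and 0.00. Without the fold limit, 33 members were higher and 2 lower in heart against kidney, beside 39.0% and 47.1% of all genes, and 34 higher and 0 lower against liver, beside 42.0% and 42.2%. The lowest of the 12 heart libraries lay above every kidney library in 33 members, beside 26.7% of all genes, and above every liver library in 32 members, beside 27.2%.

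**Figure D1:**
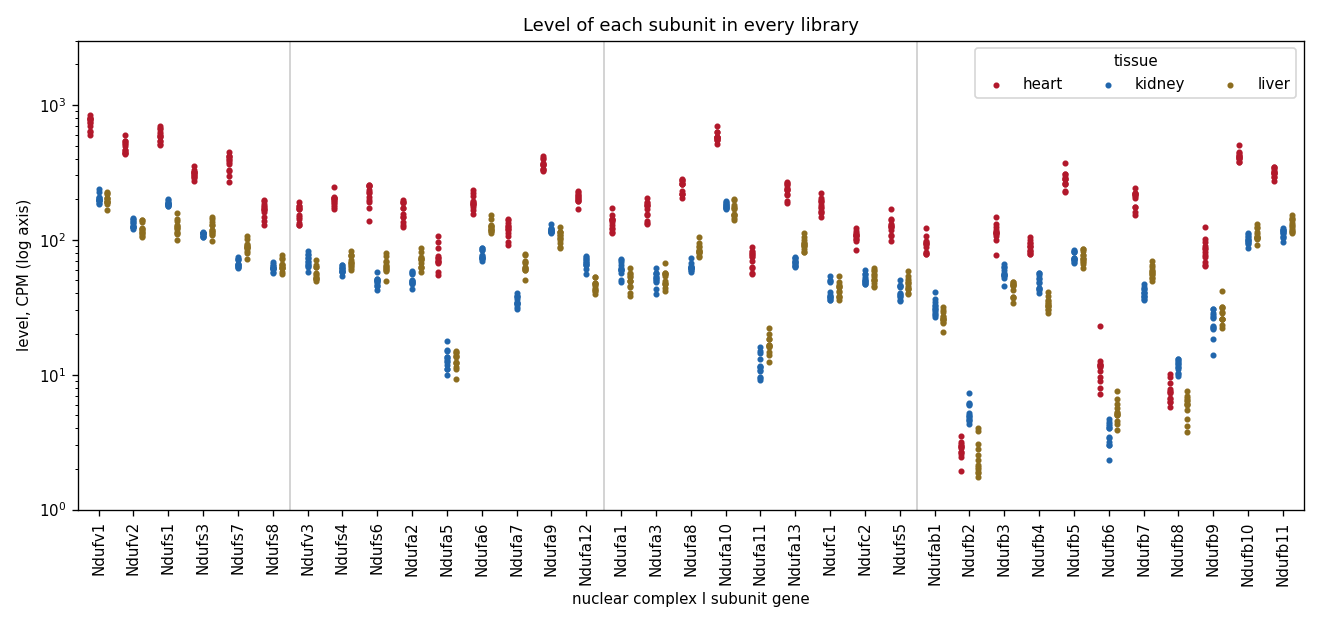
Level in CPM, on a log axis, of the 35 subunits in every library; each point is 1 of 36 libraries, coloured by tissue, and grey lines part the core subunits, the matrix arm and the proximal and distal membrane arm accessory subunits. In these unstranded counts heart points lie above those of the other tissues in 32 members, and Ndufb2, Ndufb6 and Ndufb8 have no such gap. By the sum of both strand columns, which also holds pairs of the opposite gene, Ndufb6 had at least 111.6 CPM in heart. Its highest libraries were then 59.7 CPM in kidney and 76.9 CPM in liver.

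All 6 core subunits among the members were higher in heart. Ndufv1, which binds the flavin and NADH, had 600.0, 760.6 and 835.3 CPM as its lowest, median and highest of 12 heart libraries, and 184.5, 198.7 and 236.8 CPM in kidney. In liver the same values were 165.1, 197.7 and 227.6 CPM, so that kidney and liver overlapped and heart did not overlap with either. Its log2 fold change was 1.86 (standard error 0.055, adjusted p = 6.15e-26) against kidney and 1.88 (standard error 0.055, adjusted p = 3.42e-26) against liver. Ndufs7, which holds the last iron-sulfur cluster before ubiquinone, had a median of 385.4 CPM in heart, 65.4 in kidney and 88.5 in liver. It was the core subunit with the highest ratio of heart to kidney, 2.46 on the log2 scale (standard error 0.055, adjusted p = 1.35e-29). Ndufs1, the largest iron-sulfur subunit, had medians of 587.8, 185.0 and 123.3 CPM and was the core subunit with the highest ratio of heart to liver, 2.25 (standard error 0.050, adjusted p = 8.43e-30). Ndufv2, Ndufs3 and Ndufs8, which carry or hold further parts of the electron path, ranged from 1.34 to 2.03 in both comparisons.

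The accessory subunits of the matrix arm followed with 9 of 9 called against kidney and 7 of 9 against liver. In the unstranded counts Ndufa5 had the second highest log2 fold change of all members against kidney, 2.52 (standard error 0.10), and the highest against liver, 2.55 (standard error 0.10). Its levels were low, with a highest heart library of 107.6 CPM and a highest kidney library of 17.8 CPM. It shares exons with a gene on the opposite strand, and by the sum of both strand columns its mean level was 357.4 CPM in heart and 68.8 CPM in kidney, beside 316.4 and 57.0 CPM for Ndufs7, so that its rank above Ndufs7 was not kept. Ndufa12, an accessory subunit of the matrix arm, was 2.17 higher in heart than in liver (standard error 0.056). Ndufa6, a subunit that binds the acyl carrier protein, and Ndufa7 were below the fold limit against liver at 0.60 and 0.89, although their heart libraries did not overlap with liver.

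All 9 proximal membrane arm subunits were called in both comparisons. Ndufa11 stood highest of all members against kidney in the unstranded counts, at 2.62 (standard error 0.071, adjusted p = 3.31e-27), with 55.5 to 89.2 CPM in heart and 9.11 to 15.9 CPM in kidney. Ndufc2 had the lowest called difference against liver at 1.02 (standard error 0.051), with 84.2 to 122.5 CPM in heart and 44.4 to 61.9 CPM in liver.

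In the distal membrane arm, 8 of 11 were called against kidney and 9 of 11 against liver. The exceptions against kidney were Ndufb2 (-0.92, standard error 0.10), Ndufb8 (-0.63, standard error 0.089) and Ndufb4 (0.88, standard error 0.053). Ndufb2 had 1.94 to 3.49 CPM in heart and 4.32 to 7.31 CPM in kidney, with no overlap, and Ndufb8 had 5.73 to 10.0 CPM and 9.84 to 13.1 CPM, with overlap. Against liver the exceptions here were Ndufb2 (0.16, adjusted p = 0.169) and Ndufb8 (0.36, adjusted p = 6.04e-04).

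Ndufb2 and Ndufb8 were among the members with the fewest counted pairs, and both share exons with other genes in the annotation. Ndufb8 shares 68.6% of its canonical transcript with Gm20538 on the same strand, and pairs in shared exons are not assigned to either gene. In the counts without regard to strand, pairs on exons shared with a gene on the opposite strand are lost too. The sum of both strand columns was 14.6 times the unstranded count for Ndufb6, 5.69 for Ndufa5, 4.39 for Ndufab1 and 3.02 for Ndufa11, and no more than 1.1 in 27 members. These sums also hold pairs of the opposite gene, so they are upper bounds only for what the overlap on the opposite strand removed. Pairs lost to copies or to genes on the same strand are not restored. By tissue, the ratio of Ndufa11 was 2.95 in heart, 3.23 in kidney and 3.05 for liver. Near-identical copies elsewhere, of at least 98% identity over 150 bases, covered 91.0% of the Ndufs5 transcript, 52.2% of Ndufs3, 49.8% of Ndufb4, 39.2% of Ndufa12, 36.7% of Ndufab1 and 10.1% of Ndufb2, and pairs there can be lost as mapping to several places.

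Kidney and liver held the subunits at similar levels. Of the 35 members, 1 was called higher in kidney, Ndufb2 (log2 fold change 1.08, standard error 0.10), beside 30.6% of all genes, and 0 were called lower, beside 17.2%. Ndufb2 had only 4.32 to 7.31 CPM in kidney and 1.75 to 4.03 CPM in liver. Near-identical copies of parts of its transcript lie at 13 places, so its counts may not reflect the whole gene. Without the fold limit, 12 members were higher and 16 lower at an adjusted p under 0.05, beside 46.0% and 37.0% of all genes. The median was -0.04, with a range from -0.88 for Ndufa7 to 1.08 for Ndufb2, and the median over all genes was 0.16. With an offset for transcript length and GC content, that median moved to -0.14 and the members' median to -0.33, 0 members were called higher and 2 lower, and the share of higher calls among all called genes went from 64.0% to 52.8%. In 26 members the 12 kidney and 12 liver libraries overlapped. All kidney libraries stood higher in 4 members and lower in 5, beside 27.3% and 22.3% of all genes. Below Ndufb2 stood Ndufb8 (0.99) and Ndufs1 (0.59), and at the lower end Ndufa7 was followed by Ndufa6 (-0.70) and Ndufb6 (-0.54).

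**Figure D2:**
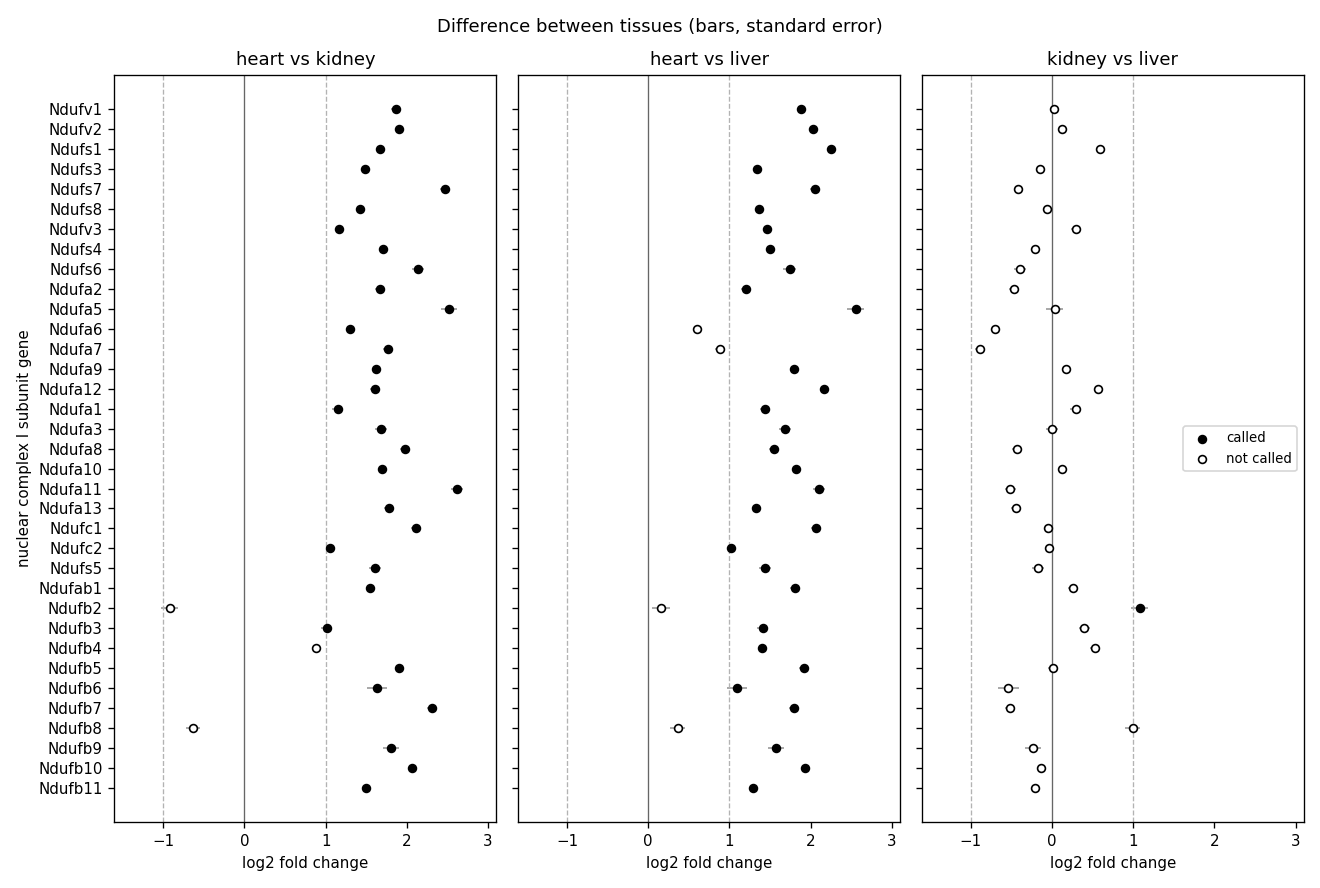
Log2 fold change of the 35 subunits between tissues, with bars for the standard error, dashed lines at the fold limit and filled points for called members. Heart is called above kidney for 32 members and above liver for 31, and kidney against liver has 1 filled point, Ndufb2, a member with few counted pairs.

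The order of members by level was compared per kilobase of canonical transcript. Ndufb10, a distal membrane arm subunit, stood at 572.3 CPM per kilobase in heart, 137.0 in kidney and 150.3 in liver. It held a place among the top 3 in every tissue with the canonical transcript, the exon union and the longest transcript as the length. Ndufb2 was last in every tissue under all 3 lengths, at 0.639, 1.21 and 0.575 CPM per kilobase. Its count was 3808 pairs over all libraries. Parts of its canonical transcript, which is 4389 bases long, have near-identical copies at 13 places, where pairs can be lost. The places of other members moved with the length chosen. Ndufb7 took place 4 in heart with the canonical transcript and place 22 with the exon union. The rank correlation with the canonical order, over 35 members, was between 0.766 and 0.865.

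Of other genes around the complex, the mitochondrially encoded subunits were higher in heart as a set. Assembly factors were called higher in heart more often than all genes against kidney, but less often against liver. Biogenesis regulators were called higher at a share near or below that of all genes. All 7 mitochondrially encoded subunits were called higher in heart than in both other tissues, with medians of 1.96 against kidney and 2.15 against liver, and mt-Nd1 was 2.02 and 2.20 higher. Of the 19 assembly factors tested of 20 listed, 8 were called higher against kidney (21.9% of all genes) and 2 against liver (28.7%), Ndufaf5 (1.30 and 1.96), a factor that modifies a core subunit, and Ndufaf3 (1.07 and 1.02). Of 13 regulators of mitochondrial biogenesis, 2 were called higher against kidney and 4 against liver, beside the same shares. They included Perm1, a muscle regulator, 5.58 higher than in kidney.

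In heart, few members were called between ages. At 12 against 8 weeks, 1 of 35 members was called higher, beside 2.36% of all genes, and 1 lower, beside 2.21%. At an unadjusted p under 0.05, 1 was higher and 9 were lower, beside 12.1% and 11.3%, and 23 of 35 fold changes were below 0, beside 49.9%. Ndufs1 had 503.5, 579.3, 541.0 and 516.7 CPM at 8 weeks and 697.6, 659.8, 676.6 and 587.8 CPM at 12 weeks. The groups did not overlap, as in 1 member that stood higher (6.92% of all genes) and 4 lower (5.73%), and the log2 fold change was 0.29 (standard error 0.079, adjusted p = 0.0441). Ndufs7 had 451.5, 418.2, 392.5 and 397.1 CPM at 8 weeks and 324.7, 269.9, 298.0 and 363.4 CPM at 12 weeks. All values at 12 weeks were below those at 8 weeks, and the fold change was -0.40 (standard error 0.096, adjusted p = 0.0308). At 10 weeks both lay between, at means of 591.6 ± 38.4 (SD, n = 4) for Ndufs1 and 384.5 ± 39.6 (SD, n = 4) for Ndufs7.

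**Figure D3:**
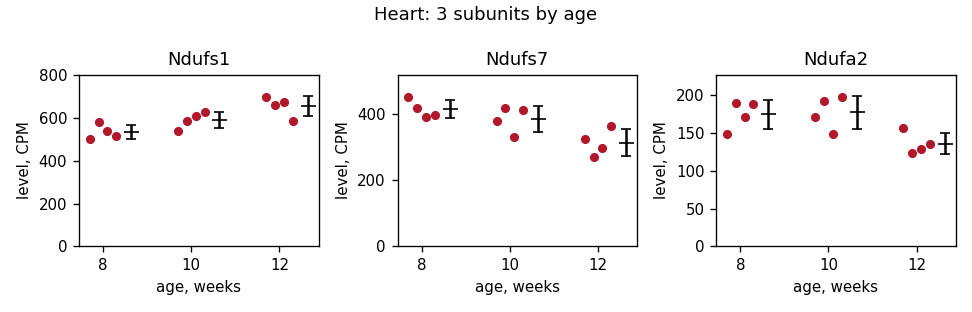
Level in CPM of Ndufs1, Ndufs7 and Ndufa2 in heart at 8, 10 and 12 weeks; coloured points are libraries and black marks give the mean and SD of 4. Ndufs1 is higher and Ndufs7 lower at 12 than at 8 weeks without overlap.

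Both calls were lost with an offset for the length and GC content of the transcripts, which were not separated. Ndufs7 has 60.5% GC and Ndufs1 45.2%, and over the 35 members the rank correlation of the change with GC content was -0.44, beside -0.29 over all genes, and with transcript length it was 0.37, beside 0.173. With the offset, Ndufs7 changed by -0.14 (adjusted p = 0.360) and Ndufs1 by 0.21 (adjusted p = 0.147), and no member was called. The median of the members was -0.14, and -0.04 with the offset. The call of Ndufs7 was lost without replicate 2, 3 or 4 at 8 weeks or replicate 1, 2 or 3 at 12 weeks. That of Ndufs1 was lost without any replicate at 8 weeks, replicate 2 or 4 at 10 weeks, or replicate 1, 2 or 3 at 12 weeks. At 10 against 8 weeks 0 members were called in either direction (0.76% and 0.304% of all genes), with 3 higher and 1 lower at an unadjusted p under 0.05 (8.26% and 7.5%). At 12 against 10 weeks 0 were called (0.0132% and 0.0264%), with 0 and 8 at an unadjusted p under 0.05 (5.69% and 6.04%). Summed fibroblast markers in heart were 648.8 to 667.1 CPM at 8 weeks, 752.0 to 932.4 at 10 weeks and 674.0 to 779.3 at 12 weeks. The 8-week libraries lay below all others. Summed cardiomyocyte markers overlapped between ages, at 47870 to 49900, 43080 to 48390 and 46210 to 57390 CPM. The highest was replicate 4 at 12 weeks. The part of these cells in the values of the members was not tested.

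**Figure D4:**
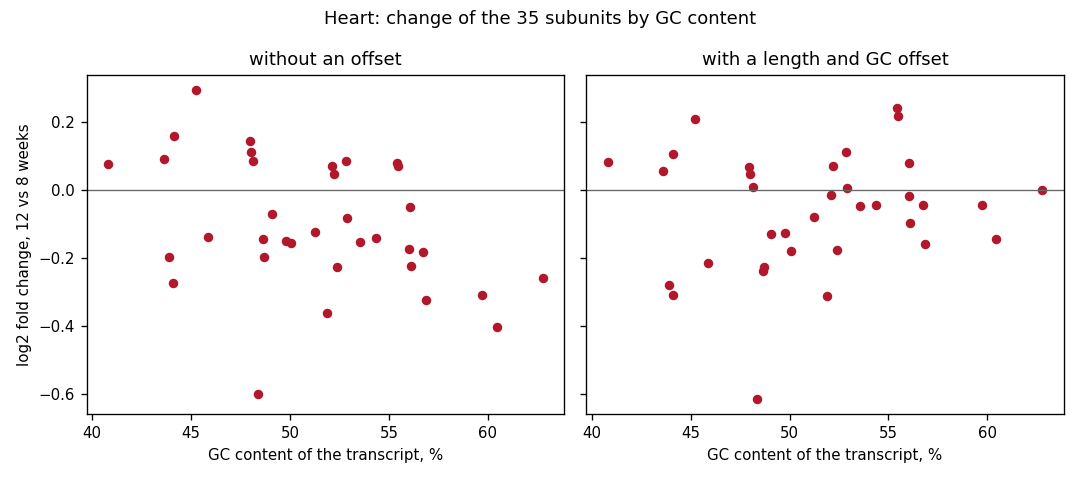
Log2 fold change at 12 against 8 weeks in heart against the GC content of the canonical transcript in percent; each point is 1 of 35 subunits, without an offset (left) and with a length and GC offset (right). The rank correlation is -0.44 on the left and 0.07 on the right.

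In kidney, a set of subunits stood higher at 10 weeks. At 10 against 8 weeks 6 of 35 members were called higher, beside 0.646% of all genes, and 0 lower, beside 0.283%. At 12 against 10 weeks 6 were called lower, beside 0.346%, and 0 higher, beside 0.136%. These comparisons share the 10-week libraries. Each age was a separate group of mice, and days of collection were not given. In all tissues, age therefore cannot be told apart from collection day or cage. At 12 against 8 weeks 0 were called (0.0397% and 0.017% of all genes), with 3 higher and 1 lower at an unadjusted p under 0.05 (6.82% and 4.84%). All 4 libraries at 10 weeks stood above all 4 at 8 weeks in 18 members, beside 5.02% of all genes, and all 4 at 12 weeks stood below all 4 at 10 weeks in 15 members, beside 4.39%. The medians of the members were 0.14, -0.15 and -0.01 in that order.

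Ndufc1, a small subunit of the membrane arm, had 37.5, 38.0, 41.2 and 38.6 CPM at 8 weeks, 54.0, 50.4, 49.3 and 48.7 CPM at 10 weeks and 35.5, 37.1, 35.8 and 38.7 CPM at 12 weeks. The 10-week libraries were above all others. The log2 fold change was 0.38 (standard error 0.051, adjusted p = 0.00479) at 10 against 8 weeks and -0.46 (standard error 0.051, adjusted p = 0.00133) at 12 against 10 weeks. Both calls were kept in all 22 alternatives.

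Ndufa11 had 9.44, 9.54, 11.6 and 10.7 CPM at 8 weeks, 14.9, 14.6, 15.9 and 13.1 CPM at 10 weeks and 11.4, 10.9, 9.11 and 11.3 CPM at 12 weeks, and its fold changes were 0.50 (adjusted p = 0.0240) and -0.45 (adjusted p = 0.0490). With summed strand columns these were 0.23 (adjusted p = 0.0630) and -0.22 (adjusted p = 0.0773), and with counts of 1 strand 0.18 (adjusted p = 0.111) and -0.24 (adjusted p = 0.0517). The 10-week libraries again stood above the rest. Ndufb5 of the distal membrane arm had 71.8 to 73.2, 81.7 to 84.0 and 67.3 to 71.2 CPM at the 3 ages, with 0.19 (adjusted p = 0.0402) and -0.25 (adjusted p = 0.0126). The first was 0.14 (adjusted p = 0.105) with summed strand columns. Of the matrix arm, Ndufa2 had 46.9 to 49.1, 55.3 to 59.0 and 43.3 to 50.0 CPM, and Ndufa6 72.4 to 77.6, 83.8 to 87.6 and 69.3 to 75.7 CPM. Their changes were 0.25 and 0.21 at 10 against 8 weeks and -0.27 and -0.23 at 12 against 10 weeks. Ndufb4 was called at 10 against 8 weeks (0.34, adjusted p = 0.0275), and Ndufab1, the mitochondrial acyl carrier protein, at 12 against 10 weeks (-0.36, adjusted p = 0.0383). With summed strand columns Ndufab1 was at -0.11 (adjusted p = 0.279), with 93.1 to 100.4 CPM at 10 weeks and 85.1 to 96.5 CPM at 12 weeks, which overlap, and with counts of 1 strand at -0.12 (adjusted p = 0.284). No core subunit was called in kidney at an adjusted p under 0.05, with Ndufs7 at 0.16 (adjusted p = 0.0694) and -0.20 (adjusted p = 0.0509).

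**Figure D5:**
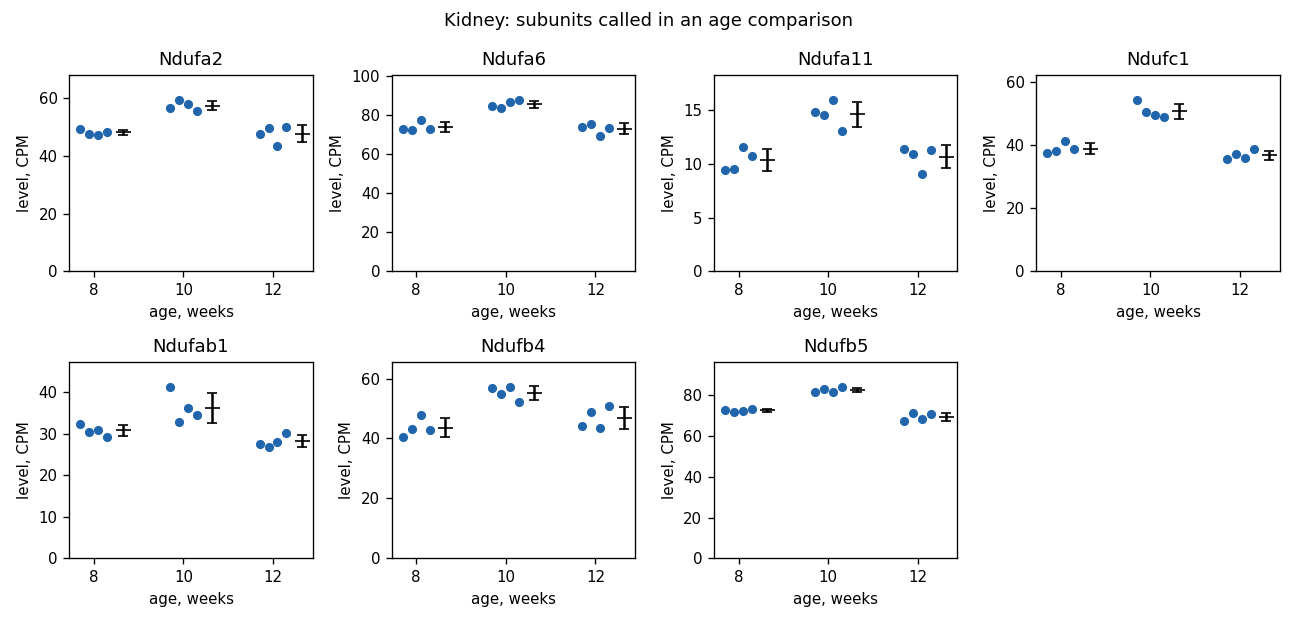
Level in CPM of the 7 subunits called in kidney at 8, 10 and 12 weeks; coloured points are libraries and black marks give the mean and SD of 4. The 10-week libraries lie above those of both other ages in each of the 7.

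Brown fat markers varied among the kidney libraries. All 8 had a count at every age, and their summed level was 3.58 to 43.0 CPM at 8 weeks, 5.31 to 21.3 at 10 weeks and 4.05 to 19.8 at 12 weeks. Ucp1, the defining marker, had 0.0338, 16.1, 0.0467 and 0.0953 CPM at 8 weeks, 3.40, 0.445, 2.20 and 3.45 CPM at 10 weeks and 6.35, 0, 0.0605 and 0.0263 CPM at 12 weeks. Without replicate 2 at 8 weeks and replicate 1 at 12 weeks, 1 member was called higher and 1 lower, Ndufc1 in both. The fold changes of the members no longer called lay between 0.18 and 0.46 at 10 against 8 weeks, beside 0.19 and 0.50 with all libraries, and between -0.48 and -0.24 at 12 against 10 weeks, beside -0.45 and -0.23. Without these 2 libraries, Ucp1 was 0.445 to 3.45 CPM at 10 weeks and at most 0.0953 CPM at the other ages. Fibroblast and red cell markers also moved in the order of the subunits. All 5 fibroblast markers stood higher at 10 against 8 weeks (median 0.365) and lower at 12 against 10 weeks (median -0.305), as did the 2 red cell markers tested of 5 (medians 0.412 and -0.637), and 0 of these were called. The summed level of the fibroblast markers was 69.9 to 161.7 CPM at 8 weeks, 106.3 to 202.7 at 10 weeks and 81.7 to 169.7 at 12 weeks, and that of the red cell markers was 1.59 to 3.04, 1.61 to 4.95 and 0.919 to 2.79 CPM. Both overlapped between the ages. The part of fat, fibroblasts and red cells in the difference between ages was not tested.

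In liver, 0 of 35 members were called at any comparison of ages, where 0.177% and 0.0613% of all genes were called higher and lower at 12 against 8 weeks, 0.0136% and 0.00682% at 10 against 8 weeks and 0.0204% and 0.0341% at 12 against 10 weeks. At an unadjusted p under 0.05, 4, 5 and 6 members were higher (7.37%, 7.04% and 6.36% of all genes) and 0, 1 and 2 lower (7.77%, 7.27% and 7.77%). The common coefficient of variation between replicates in the fit was 0.206 in liver, 0.113 in kidney and 0.118 in heart. A change of a given size was therefore harder to call in liver. The median at 12 against 8 weeks was 0.11, with 29 members above 0, beside 49.3% of all genes. All 5 endothelial and all 5 fibroblast markers were below 0 at this comparison, with medians of -0.51 and -0.54 and 0 called. Their summed levels were 87.6 to 143.6 and 177.3 to 288.2 CPM at 8 weeks, and 57.8 to 92.8 and 130.0 to 203.7 CPM at 12 weeks. Their part in the values of the members was not tested.

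The change from 8 to 12 weeks was compared between tissues by an interaction term. Against liver, 2 members changed lower in heart, beside 1.81% of all genes, and 0 higher, beside 2.35%. The difference was -0.54 for Ndufs7 (standard error 0.13, adjusted p = 0.0156) and -0.52 for Ndufa2 (standard error 0.14, adjusted p = 0.0297), a matrix arm subunit with 148.3, 189.9, 171.9 and 188.8 CPM in heart at 8 weeks and 156.1, 123.9, 129.1 and 135.2 CPM at 12 weeks. Heart values of Ndufa2 overlapped between the ages. In the same contrast all 5 endothelial and all 5 fibroblast markers changed in the other direction, with medians of 0.605 and 0.689, and 2 were called, Kdr and Pecam1. Against kidney 0 members were called (0.0609% and 0.0507% of all genes), with 1 higher and 7 lower at an unadjusted p under 0.05 (5.73% and 5.42%), and between kidney and liver 0 (0.137% and 0.167%), with 0 and 2 (6.17% and 4.99%).

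Lists of other genes around the complex were called little between ages. Of 19 assembly factors, 11 iron-sulfur cluster assembly genes and the mitochondrially encoded subunits tested, 0 were called at any comparison of ages. The shares of all genes are those given above for the members. The absence of a call does not show that these genes were unchanged. The paper, with its own fit, reports lower mitochondrial transcripts in heart at 12 than at 8 weeks, among them mt-Nd1 and mt-Nd3. Of 13 genes of mitochondrial content 2 were called at 12 against 8 weeks in heart, both higher (2.36% of all genes), Timm23 (0.31), an import channel, and Hspa9 (0.29), a mitochondrial chaperone.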

How the data were processed

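RNA of heart, kidney and liver was sequenced in 4 samples per tissue and age. The authors checked reads with FastQC 0.11.9, trimmed them with cutadapt 4.2 and aligned them with STAR 2.7.11b to GRCm39, and deposited raw counts of read pairs per gene in 3 columns, without regard to strand and for each strand. The first was used, since 49.8% to 50.2% of stranded counts fell on the first strand. Names and lengths came from GENCODE M39 (Ensembl 116), and 78168 of 78239 genes had a name. Heart libraries lost 16.2% to 19.1% of pairs to several mapping places, kidney 7.62% to 9.17% and liver 6.26% to 7.04%.

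Genes entered a fit if 1 group or more had counts in 2 samples and a mean count of 10 or above. edgeR 4.0.16 (R 4.3.3, TMM, quasi-likelihood test) fitted ages within each tissue and all 9 groups for tissues, with p-values adjusted by Benjamini-Hochberg over all genes tested. Copies were sought with blastn 2.17.0. The methods were tested on simulated data. Named genes were members called between ages, the core subunits and the 3 highest and 3 lowest between tissues and per length, where those held under every length. Members and lists were chosen with earlier results of these data known. Alternatives were DESeq2 1.42.0, limma-voom 3.58.1, RLE factors, no filter, a replicate block, mitochondrially encoded genes left out, a length and GC offset, 1 strand, 2 tissues and each library left out. In the fits of ages within a tissue, the replicate block joined libraries of the same number across ages, which came from different mice. Summed strand columns and the omission of 2 kidney libraries were added after seeing the data, and the motif letters had no length set beforehand, so ETS and YY1 were counted at 2 lengths. The NRF1 letters were first searched with 1 base more, which 1 member held, and were then shortened.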

Additional observations from a re-analysis of the deposited data

Results flagged for a closer look

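In 171 groups of 4 samples of the 19 named members, 6 had a sample far from the other 3, while chance flags about 1 in 20, or 8.6. Heart replicate 1 at 8 weeks held 3 of them. Its values were 594.5 CPM for Ndufv2, against 433.4 to 441.2 in the others, 107.6 for Ndufa5, against 69.3 to 73.2, and 23.0 for Ndufb6, against 11.4 to 12.1. Kidney replicate 3 at 8 weeks had 77.6 CPM of Ndufa6, against 72.4 to 73.2. Liver replicate 3 at 8 weeks had 12.5 CPM of Ndufa11, against 16.3 to 16.6. Heart replicate 4 at 10 weeks had 9.59 CPM of Ndufb8, against 7.27 to 7.58.

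The change from 8 to 12 weeks differed between heart and liver for Ndufs7 by -0.54 and for Ndufa2 by -0.52 on the log2 scale, by the interaction term. With the length and GC offset neither was called.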

How the results depend on the processing

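The calls of 32 members higher in heart than in kidney and 31 higher than in liver kept within 1.5 times their count in every alternative. With each library left out they were 31 to 32 and 30 to 31. The length and GC offset moved the median of the members to 2.15 against kidney, 1.68 against liver and -0.33 for kidney against liver, where the median of all genes moved to 0.11, 0.00 and -0.14. The share of higher among called genes moved from 41.6% to 51.0% in heart against kidney and from 64.0% to 52.8% in kidney against liver. For kidney against liver, 0 members were then called higher and 2 lower. DESeq2, limma-voom with and without weights, RLE factors, no filter and mitochondrially encoded genes left out called 2 higher, and leaving out libraries 1 to 2.

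In heart at 12 against 8 weeks, 0 members were called higher with no filter, the replicate block, the offset, summed strand columns and counts of 1 strand. Lower members were 3 with DESeq2, 5 with no filter, 2 with the replicate block, 0 with the offset and 2 with summed strand columns. Without single libraries 0 to 1 were higher and 0 to 9 lower: 9 without replicate 4 at 12 weeks, 3 without replicate 1 at 8 weeks, 2 without replicate 3 at 10 weeks, and 0 without replicates 2, 3 or 4 at 8 weeks or 1, 2 or 3 at 12 weeks. With no filter 1 was lower at 10 against 8 weeks and 2 at 12 against 10 weeks. In kidney, members called at 10 against 8 and 12 against 10 weeks were 10 and 13 with DESeq2, 3 and 3 with the replicate block, 2 and 2 with the offset, and 1 and 1 without the 2 libraries with the most Ucp1. Counts of 1 strand gave 1 at 10 against 8 weeks. Leaving out single libraries gave 1 to 6 and 2 to 7. At 10 against 8 weeks it was 1 without replicate 2 or 4 at 8 weeks or 1 or 3 at 10 weeks, and 3 without replicate 1 or 3 at 8 weeks. At 12 against 10 weeks it was 2 without replicate 2 or 3 at 8 weeks, 1 or 3 at 10 weeks or 2 or 3 at 12 weeks, and 3 without replicate 2 at 10 weeks or 4 at 12 weeks. With no filter 2 members were higher at 12 against 8 weeks. In liver DESeq2 called 2 higher at 12 against 10 weeks. The interaction of heart with liver called 5 with DESeq2, 4 with mitochondrially encoded genes left out, 4 with summed strand columns, 0 with the offset and 1 with quality weights, and 1 to 8 with libraries left out, 8 without heart replicate 4 and 7 without liver replicate 4 at 12 weeks. The cause of these moves was not tested.

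The labels do not say whether libraries of the same number in the 3 tissues came from 1 mouse. Deviations from the group means correlated above 0.1 in 21 of 36 same-numbered samples of 2 tissues and in 11 of 36 of 2 ages, and 26 and 12 of 36 correlated best with their own number. All 4 pairs of kidney and liver were above 0.1 at 10 and at 12 weeks, but not all 4 at 8 weeks, so the rule for pairing (every pair above 0.1) was not met. The main fits left the libraries unpaired, and this rule does not show that they came from different mice. With age and number as a replicate block, as if each were 1 mouse, 32, 31 and 1 members were called higher between tissues and 2 in the interaction of heart with liver, the same counts as without it. The exact CPM of members with a gene on the opposite strand, or with few pairs, is limited by the counting.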
